A study of Kluyveromyces lactis with 8 samples.

Results

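CTR1, FRE1, FET4 and FIT2 are 4 genes of iron and copper uptake in the milk yeast Kluyveromyces lactis. They were found by symbol in the RefSeq gene table of this species (assembly ASM251v1), which joins to the deposited identifiers by locus tag, and they are 4 of the 5076 genes measured. CTR1 is KLLA0B11407g, FRE1 is KLLA0F04950g, FET4 is KLLA0E14499g and FIT2 is KLLA0C05016g. They were chosen by their levels and differences across the 4 strains in these same libraries, so their levels and differences are given as a description and they carry no p-value.

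Yeast takes up iron and copper in linked steps, known best from Saccharomyces cerevisiae. Reductases at the cell surface turn ferric iron and cupric copper into their reduced forms, the copper transporter Ctr1 brings copper in, and the high-affinity iron system (the oxidase Fet3 with the permease Ftr1) needs copper to work. Fet4 is a low-affinity carrier of ferrous iron that also moves copper and zinc, and Fit2 is a cell wall mannoprotein that helps to hold siderophore-bound iron at the wall. In S. cerevisiae the activator Aft1 turns on the iron genes when iron is scarce, and Mac1 turns on CTR1 and FRE1 when copper is scarce.

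RNA was measured in 8 libraries, 2 for each of 4 strains, all of mating type a and all lacking both silent cassettes (hmrΔ and hmlΔ). The strains were sir2Δ (LRY2850), without the deacetylase Sir2, sir4Δ (LRY3096), without the silencing protein Sir4, sum1Δ (LRY3098), without the repressor Sum1, and the wild type with intact SIR2 (LRY2835, WT). All grew in rich glucose medium (YPD) at 30 °C from an OD of 0.3 to an OD of 1 (early log phase), and the labels name no metal treatment. The series calls the 2 libraries of a strain technical replicates, and each genotype is 1 strain. The spread given here may therefore be technical and does not cover independent cultures or strains.

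Estimated reads on genes ran from 10.1 to 26.2 M per library. Both sir4Δ libraries, sir2Δ replicate 1 and WT replicate 2 were shallow (10.1 to 11.8 M), and both sum1Δ libraries, sir2Δ replicate 2 and WT replicate 1 were deep (21.2 to 26.2 M), so depth overlaps with strain for sir4Δ and sum1Δ. SUM1 was listed at 0 in both sum1Δ libraries and at 22.1 to 59.8 FPKM in the other 6. SIR2 and SIR4 had no row under those symbols, so their deletions were not checked here. The 5 markers of a cells and the 3 markers of alpha cells with a row were all above 0 in each strain. The a-cell markers summed to 265 to 309 FPKM in sir2Δ, 29.9 to 30.1 FPKM in sir4Δ, 321 to 340 FPKM in sum1Δ and 26.7 to 29.6 FPKM in WT libraries, and the alpha markers to 36.7 to 37.7, 51.1 to 53.5, 44.7 to 48.7 and 36.7 to 38.7 FPKM in the same order of strains. Most of the spread in the a-cell sum was AGA2, at 218 to 290 FPKM in sir2Δ and sum1Δ libraries and 4.98 to 6.98 FPKM in sir4Δ and WT libraries, with smaller parts from BAR1 and ASG7, while STE2 (8.1 to 10.1 FPKM) and STE6 (7.68 to 9.72 FPKM) spanned narrow ranges over the 8 libraries. Their part in the results below was not tested.

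Levels are in FPKM, a read density corrected for gene length and library size, which allows levels of genes of unlike length to be set side by side. FRE1 was the most abundant of the 4 in sir2Δ and sum1Δ, FIT2 in sir4Δ and WT, and FET4 the least abundant in each strain. FET4 stood at 19.2 to 43.2 FPKM over the 8 libraries, between the 15.0 and 34.5 percentile of all genes. CTR1 ranged over 90 to 353 FPKM, FIT2 over 186 to 449 FPKM and FRE1 over 159 to 771 FPKM, so that these 3 were above the median gene in every library. An FPKM value reflects all cells of the culture together, so fewer cells expressing a gene and less RNA per cell cannot be told apart. The estimated reads behind a value ran from 265 (FET4 in sir4Δ replicate 1) to 40665 (FRE1 in sum1Δ replicate 2), which gives counting errors of 6.14% to 0.496%.

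**Figure D1:**
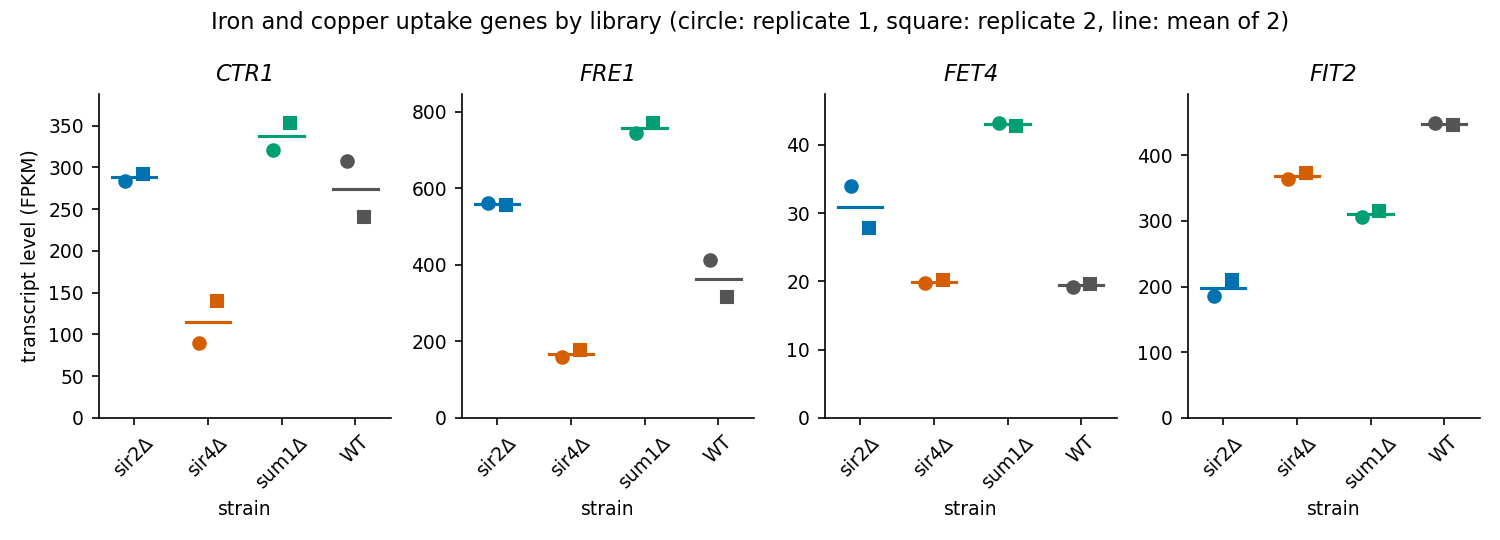
Transcript levels (FPKM, linear axes from 0) of the 4 uptake genes in each library, with 1 panel a gene. Circles are replicate 1, squares replicate 2 and lines the mean of 2; CTR1 and FRE1 are lowest in sir4Δ, FET4 is highest in sum1Δ, and FIT2 is lowest in sir2Δ and highest in WT.

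FRE1, which encodes a ferric and cupric reductase of the plasma membrane, varied most among the 4. It stood at 562 and 556 FPKM in sir2Δ libraries, 159 and 177 FPKM in sir4Δ libraries, 745 and 771 FPKM in sum1Δ libraries and 412 and 315 FPKM in WT libraries. No 2 strains overlapped, and from high to low the order was sum1Δ, sir2Δ, WT and sir4Δ, each step larger than the SDs of both neighbours together. How many of all genes show no overlap or a given order was not counted, here or for the genes below. The means of FRE1 were 559 ± 4.18 FPKM in sir2Δ, 168 ± 12.4 FPKM in sir4Δ, 758 ± 18.3 FPKM in sum1Δ and 364 ± 69 FPKM in WT (mean ± SD, n = 2). Strain means thus spanned 4.51-fold. With 1 FPKM added to each mean, which narrows the spans of low genes, all genes tested had a median span of 1.40-fold. On that scale 4.18% of genes had a wider span than FRE1, 8.68% than CTR1, 16.0% than FIT2 and 17.7% than FET4.

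CTR1, the high-affinity copper transporter, was low in sir4Δ and close together elsewhere. It stood at 284 and 292 FPKM in sir2Δ libraries, 90 and 140 FPKM in sir4Δ libraries, 321 and 353 FPKM in sum1Δ libraries and 307 and 240 FPKM in WT libraries. Both sir4Δ libraries were below the other 6, sum1Δ lay above the rest, and sir2Δ and WT overlapped, with a gap between their means (13.7 FPKM) smaller than their SDs together (53.1 FPKM). The means were 288 ± 5.69 FPKM in sir2Δ, 115 ± 35.4 FPKM in sir4Δ, 337 ± 22.7 FPKM in sum1Δ and 274 ± 47.4 FPKM in WT (mean ± SD, n = 2). The sir4Δ libraries were 0.63 apart in log2(FPKM + 1), past their counting errors of 4.1% and 3.11%.

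FET4, the low-affinity carrier, was highest in sum1Δ, then sir2Δ. It stood at 34.0 and 27.8 FPKM in sir2Δ libraries, 19.7 and 20.2 FPKM in sir4Δ libraries, 43.2 and 42.8 FPKM in sum1Δ libraries and 19.2 and 19.6 FPKM in WT libraries. The order was sum1Δ, sir2Δ, sir4Δ and WT, and the last step, 0.561 FPKM between sir4Δ and WT, was smaller than their SDs together. The means were 30.9 ± 4.40 FPKM in sir2Δ, 20 ± 0.375 FPKM in sir4Δ, 43.0 ± 0.313 FPKM in sum1Δ and 19.4 ± 0.273 FPKM in WT (mean ± SD, n = 2).

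FIT2, the cell wall protein, had its highest level in WT and its lowest in sir2Δ. It stood at 186 and 210 FPKM in sir2Δ libraries, 363 and 373 FPKM in sir4Δ libraries, 306 and 315 FPKM in sum1Δ libraries and 449 and 446 FPKM in WT libraries. No strains overlapped and the order was WT, sir4Δ, sum1Δ and sir2Δ, each step larger than the SDs of both neighbours together. The means were 198 ± 16.5 FPKM in sir2Δ, 368 ± 7.30 FPKM in sir4Δ, 310 ± 6.38 FPKM in sum1Δ and 448 ± 2.52 FPKM in WT (mean ± SD, n = 2). FIT2 was thus below WT in every mutant library, while no other member was. Its coding length of 480 bases is the shortest of the 4, so its FPKM depends most on the length correction.

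Differences were fitted with limma on log2(FPKM + 1) for the 5022 genes whose mean reached 1 FPKM, a scale on which low genes appear to change less than they do. Calls needed an adjusted p (Benjamini-Hochberg) under 0.05 together with a log2 fold change of 1 or more in either direction. The 3 comparisons with WT share the same WT libraries. All adjusted p-values rest on the spread between the 2 libraries of a strain, so they do not cover independent cultures or strains. In sir2Δ against WT, 1 of the 4 genes was called lower (FIT2), against 0.717% of all genes tested. In sir4Δ against WT, 2 were called lower (CTR1 and FRE1), against 0.737%. In sum1Δ against WT, 2 were called higher (FRE1 and FET4), against 7.73%. Nothing is read from these counts, because the genes were chosen with these comparisons known.

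**Figure D2:**
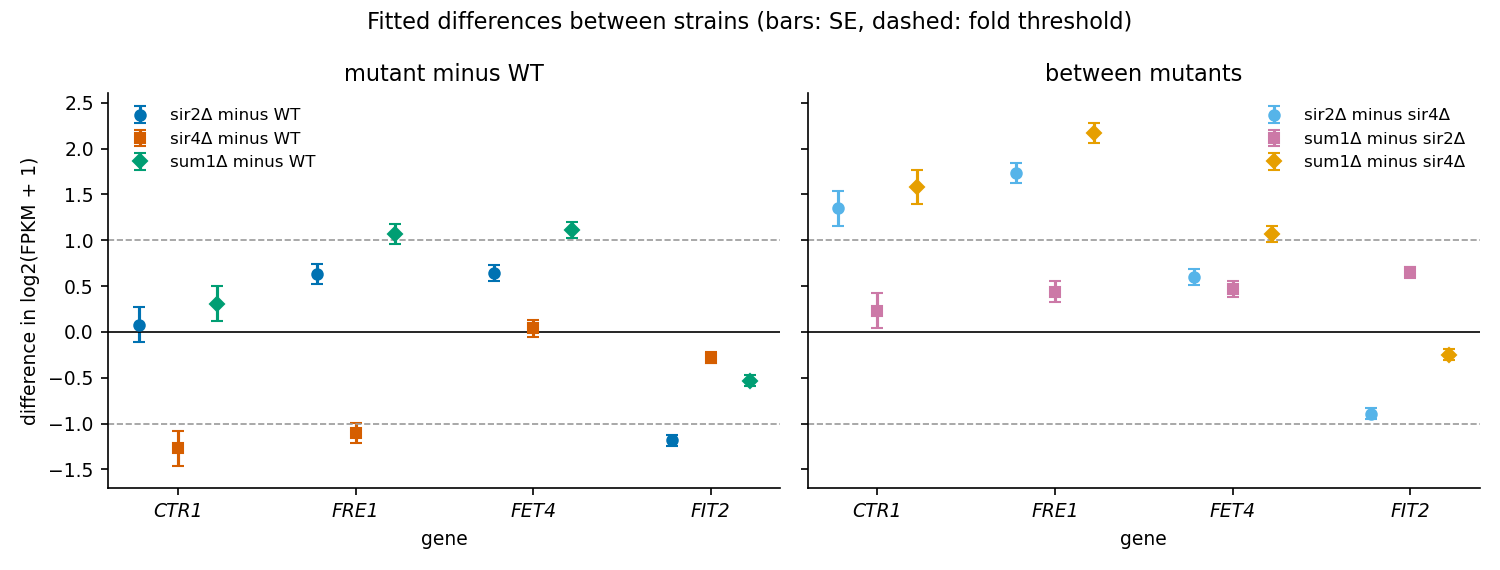
Fitted differences in log2(FPKM + 1) of the 4 genes, each mutant minus WT on the left and between mutants on the right. Bars are SEs and dashed lines the fold threshold of 1 in either direction; FRE1 spans the widest range, and only FIT2 is below 0 in all 3 mutants.

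In sir2Δ against WT, FIT2 was at 44.2% of the WT level (log2 fold change -1.18, SE 0.06). FRE1 was 1.54-fold higher (0.63, SE 0.11) and FET4 1.59-fold higher (0.64, SE 0.09), both under the fold threshold, and CTR1 differed little (0.08, SE 0.19). Both strains hold a deep and a shallow library, and within the deep and the shallow class the differences were -1.1 and -1.25 for FIT2, 0.43 and 0.83 for FRE1, 0.51 and 0.76 for FET4 and -0.08 and 0.24 for CTR1. Without WT replicate 2 the CTR1 difference turned to -0.10.

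In sir4Δ against WT, CTR1 was at 42.0% of the WT level (log2 fold change -1.27, SE 0.19) and FRE1 at 46.2% (-1.1, SE 0.11). FIT2 was at 82.2% (-0.28, SE 0.06), and FET4 differed by 0.04 (SE 0.09). Both sir4Δ libraries are shallow, and against the shallow WT library alone the differences were -1.09 for CTR1, -0.90 for FRE1, -0.28 for FIT2 and 0.03 for FET4. CTR1 stood at -0.95 and lost its call without sir4Δ replicate 1, and FRE1 stood at -0.90 and lost its call without WT replicate 1.

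In sum1Δ against WT, FET4 was 2.21-fold higher (log2 fold change 1.11, SE 0.09) and FRE1 2.09-fold higher (1.07, SE 0.11). CTR1 was 1.23-fold higher (0.31, SE 0.19) and FIT2 at 69.2% of the WT level (-0.53, SE 0.06). Both sum1Δ libraries are deep, and against the deep WT library alone the differences were 1.12 for FET4, 0.88 for FRE1, 0.13 for CTR1 and -0.53 for FIT2. FRE1 lost its call without WT replicate 2 (0.88) and with depth class as a term (0.98), and FET4 lost its call under quantile normalization (0.93) and at a pseudocount of 5 (0.97).

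Between mutants, CTR1 and FRE1 set sir4Δ apart. FRE1 was 4.51-fold higher in sum1Δ than in sir4Δ (log2 fold change 2.17, SE 0.11) and 3.32-fold higher in sir2Δ than in sir4Δ (1.73, SE 0.11). CTR1 was 2.93-fold higher in sum1Δ than in sir4Δ (1.58, SE 0.19) and 2.50-fold higher in sir2Δ than in sir4Δ (1.35, SE 0.19). FET4 was 2.15-fold higher in sum1Δ than in sir4Δ (1.07, SE 0.09), a call lost under quantile normalization (0.85) and at a pseudocount of 5 (0.94). The call counts were thus 3 of 4 higher in sum1Δ against sir4Δ (12.7% of all genes) and 2 of 4 higher in sir2Δ against sir4Δ (8.74% of all genes). None of the 4 was called in sum1Δ against sir2Δ, where 2.41% of all genes were, and there the log2 fold changes were 0.65 for FIT2 (SE 0.06), 0.47 for FET4 (SE 0.09), 0.44 for FRE1 (SE 0.11) and 0.23 for CTR1 (SE 0.19). Tested with treat against an absolute log2 fold change of 1, which is stricter by construction, FRE1 kept its calls against sir4Δ and no call against WT held for any of the 4. Nothing is read from these counts or from treat either, because the genes were chosen with these comparisons known.

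The rest of the pathway was taken from 12 lists by role, with 104 S. cerevisiae names, of which 75 had a row in the files. Leaving out the 4 uptake genes, 71 were tested. In sir2Δ against WT 1 of the 71 rose and 2 fell, in sir4Δ against WT none rose and none fell, and in sum1Δ against WT 4 rose and 2 fell. Over all genes, 4.90% were called higher and 0.717% lower in sir2Δ, 0.617% and 0.737% in sir4Δ, and 7.73% and 2.87% in sum1Δ. The 71 had median log2 fold changes of 0.02 in sir2Δ, -0.04 in sir4Δ and 0.06 in sum1Δ, beside -0.006, -0.009 and -0.005 over all genes. On the adjusted p alone, without the fold threshold, 22 were higher and 24 lower in sir2Δ (28.9% and 29.2% of all genes), 13 and 17 in sir4Δ (16.8% and 20.9%) and 28 and 19 in sum1Δ (33.6% and 32.6%). Between mutants, 5 rose and 4 fell in sir2Δ against sir4Δ (8.74% and 3.23% of all genes), none was called in sum1Δ against sir2Δ (0.677% and 1.73%), and 6 rose and 4 fell in sum1Δ against sir4Δ (12.7% and 4.90%). Under treat, 0 of the 71 were higher and 0 lower in sir2Δ against WT, and 1 and 0 in sum1Δ against WT. The lost calls of list genes named below leave treat aside.

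**Figure D3:**
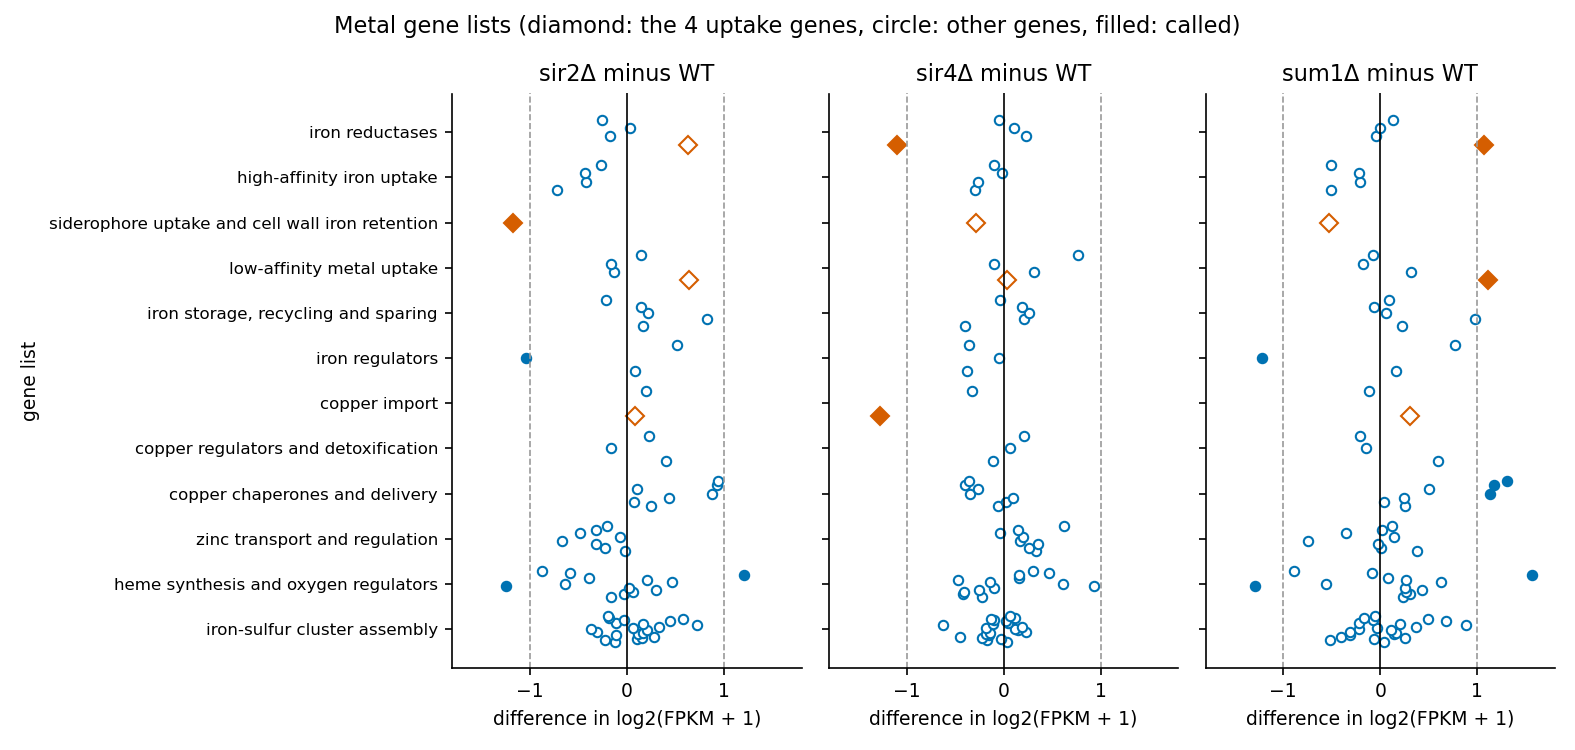
Differences in log2(FPKM + 1) of each mutant minus WT for the 75 genes of 12 metal lists, 1 point a gene, spread vertically within a list for sight. Diamonds are the 4 uptake genes, circles the other 71, filled symbols met the call rule and dashed lines mark the fold threshold; copper delivery genes lie to the right in sum1Δ and high-affinity iron genes lie left of 0 in all 3 panels.

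The 4 genes of high-affinity iron uptake had log2 fold changes below 0 in all 3 mutants, and none reached the fold threshold. In sir4Δ FET5 differed little from WT (103 and 96.3 FPKM against 101 and 101 FPKM). FET3, the copper-dependent iron oxidase, stood at 345 and 363 FPKM in sir2Δ libraries, 472 and 472 FPKM in sir4Δ libraries, 399 and 416 FPKM in sum1Δ libraries and 601 and 564 FPKM in WT libraries. No mutant library reached a WT library, and the order of strains was that of FIT2. The log2 fold changes of FET3 were -0.72 in sir2Δ (SE 0.05, limma adjusted p = 2.36e-05), -0.30 in sir4Δ (SE 0.05, limma adjusted p = 0.00379) and -0.51 in sum1Δ (SE 0.05, limma adjusted p = 7.46e-05). FTR1, the permease that pairs with Fet3, stood at -0.42, -0.26 and -0.21 in sir2Δ, sir4Δ and sum1Δ. FET5 and FTH1, their counterparts at the vacuole in S. cerevisiae, stood at -0.43 and -0.27 in sir2Δ, -0.02 and -0.10 in sir4Δ and -0.22 and -0.51 in sum1Δ. At an adjusted p below 0.05 without the fold threshold, 4 of 4 were lower in sir2Δ, 2 of 4 in sir4Δ and 4 of 4 in sum1Δ, beside 29.2%, 20.9% and 32.6% of all genes. The median of the list was -0.42 in sir2Δ, -0.18 in sir4Δ and -0.36 in sum1Δ.

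FRE3, FRE5 and FRE8, the other reductase genes with a row, had strain means of 38.6 to 81.3 FPKM. Their log2 fold changes against WT lay between -0.26 and 0.23 over the 3 mutants. None was called, beside 5.62%, 1.35% and 10.6% of all genes in sir2Δ, sir4Δ and sum1Δ. Reads of such related genes can be shared in counting, which was not tested. Of the low-affinity metal carriers beside FET4, none was called against WT, beside the same shares of all genes. SMF3, a vacuolar metal carrier in S. cerevisiae, was at 0.77 in sir4Δ (SE 0.12), with 0.14 in sir2Δ and -0.07 in sum1Δ. SMF1 and SMF2 lay between -0.18 and 0.32. CTR2, the vacuolar copper transporter, was at 0.20 in sir2Δ, -0.33 in sir4Δ and -0.12 in sum1Δ, without a call.

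Some genes of copper delivery to cytochrome c oxidase had the strain order of FRE1. Of 7 copper chaperone and delivery genes, none was called in sir2Δ or sir4Δ against WT (5.62% and 1.35% of all genes). In sum1Δ against WT 3 rose, beside 7.73% of all genes. The 3 were COX17, the copper chaperone for the oxidase, and COX19 and COX23, both of the space between the mitochondrial membranes. COX17 stood at 183 and 172 FPKM in sir2Δ libraries, 70.3 and 79.3 FPKM in sir4Δ libraries, 208 and 213 FPKM in sum1Δ libraries and 103 and 89.1 FPKM in WT libraries. No strains overlapped for COX17, and sir4Δ was lowest and sum1Δ highest, as for FRE1. The share of all genes with such an order was not counted. In sum1Δ against WT the log2 fold changes were 1.13 for COX17 (SE 0.08, limma adjusted p = 1.17e-05), 1.17 for COX19 (SE 0.10, limma adjusted p = 2.16e-05) and 1.31 for COX23 (SE 0.11, limma adjusted p = 2.69e-05). In sir2Δ against WT they stood at 0.88, 0.93 and 0.94, just under the fold threshold, which COX23 passed without sir2Δ replicate 1 (1.05) and without WT replicate 1 (1.05), and COX19 without WT replicate 1 (1.06). In sir4Δ against WT they stood at -0.35, -0.40 and -0.36. The same 3 were higher in sir2Δ than in sir4Δ (1.24, 1.32 and 1.31) and higher in sum1Δ than in sir4Δ (1.48, 1.56 and 1.68). The list median was 0.43 in sir2Δ, -0.26 in sir4Δ and 0.50 in sum1Δ against WT, and ATX1, CCC2, CCS1 and COX11 were not called in any comparison. COX19 and COX23 have coding lengths of 300 and 369 bases, so their FPKM leans on the length correction.

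MAC1, the copper-sensing activator, stood at 38.6 and 42.2 FPKM in sir2Δ libraries, 26.9 and 29.2 FPKM in sir4Δ libraries, 45.3 and 47.6 FPKM in sum1Δ libraries and 30.4 and 30.1 FPKM in WT libraries. Its libraries lay in the strain order of FRE1, over a narrower range, and its log2 fold changes of 0.40, -0.11 and 0.60 in sir2Δ, sir4Δ and sum1Δ against WT were under the fold threshold. SOD1, the copper and zinc superoxide dismutase, and CUP2, the copper-responsive activator of detoxification, lay between -0.21 and 0.23 in the 3 mutants and were not called.

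Of the 3 iron regulators with a row, FRA1 fell in sir2Δ and sum1Δ against WT, beside 0.717% and 2.87% of all genes. In S. cerevisiae Fra1 and Bol2 act with the glutaredoxins Grx3 and Grx4 to report iron status to Aft1. FRA1 stood at 253 and 211 FPKM in sir2Δ libraries, 466 and 456 FPKM in sir4Δ libraries, 197 and 213 FPKM in sum1Δ libraries and 453 and 502 FPKM in WT libraries. The sir2Δ and sum1Δ libraries lay together at about the same level, apart from those of sir4Δ and WT. The log2 fold changes of FRA1 were -1.04 in sir2Δ (SE 0.09, limma adjusted p = 5.61e-05) and -1.22 in sum1Δ (SE 0.09, limma adjusted p = 1.19e-05), and its log2 fold change was -0.05 in sir4Δ. Its sir2Δ call was lost without sir2Δ replicate 2 (-0.91) and without WT replicate 2 (-0.97). Against sir4Δ FRA1 fell in sum1Δ (-1.17), a call lost with depth class as a term (-0.96). In sir2Δ against sir4Δ FRA1 stood at -0.99, and it passed without sir2Δ replicate 1 (-1.12) or sir4Δ replicate 2 (-1.01). GRX4 was called in sum1Δ against sir4Δ (1.13, SE 0.05, limma adjusted p = 3.76e-07), with means of 822 ± 18.8 FPKM in sum1Δ and 374 ± 10.3 FPKM in sir4Δ (SD, n = 2). BOL2 was called in no comparison, and no row carried the symbol AFT1 or AFT2. Among storage and recycling genes none was called in any comparison, where 1.35% to 17.6% of all genes were. The heme oxygenase gene HMX1 was nearest to the threshold with 0.98 in sum1Δ (SE 0.10) and 0.83 in sir2Δ. It passed in sum1Δ without sum1Δ replicate 2 (1.02) or WT replicate 2 (1.01).

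Of 13 heme and oxygen genes, ROX1 rose and HEM13 fell in both sir2Δ and sum1Δ against WT, and none was called in sir4Δ. Over all genes, 4.90% were called higher and 0.717% lower in sir2Δ, and 7.73% and 2.87% in sum1Δ. In sir4Δ 1.35% were called in either direction. ROX1, in S. cerevisiae the repressor of hypoxic genes such as FET4 and HEM13, stood at 27.4 and 26.9 FPKM in sir2Δ libraries, 12.1 and 13.1 FPKM in sir4Δ libraries, 34.1 and 36.3 FPKM in sum1Δ libraries and 10.6 and 11.7 FPKM in WT libraries. ROX1 and FET4 were both higher in sir2Δ and sum1Δ than in sir4Δ and WT, though FET4 was not called in sir2Δ against WT (0.64). Any action of Rox1 on FET4 or HEM13 in these strains was not tested. ROX1 had log2 fold changes of 1.21 in sir2Δ (SE 0.08, limma adjusted p = 7.50e-06) and 1.57 in sum1Δ (SE 0.08, limma adjusted p = 1.00e-06), the first lost under quantile normalization (0.94) and at a pseudocount of 5 (0.99). HEM13, an oxygen-dependent enzyme of heme synthesis, stood at 403 and 325 FPKM in sir2Δ libraries, 1691 and 1608 FPKM in sir4Δ libraries, 331 and 374 FPKM in sum1Δ libraries and 770 and 967 FPKM in WT libraries. The sir2Δ and sum1Δ libraries were all below WT and both sir4Δ libraries above it. HEM13 had log2 fold changes of -1.25 in sir2Δ (SE 0.13, limma adjusted p = 0.000117) and -1.29 in sum1Δ (SE 0.13, limma adjusted p = 5.57e-05). In sir4Δ it stood at 0.93, short of the threshold, which it passed without WT replicate 2 (1.1). Against sir4Δ it was at -2.19 in sir2Δ and -2.23 in sum1Δ. HEM14, UPC2 and HAP1 were lower in sir2Δ than in sir4Δ (-1.25, -1.18 and -1.06). Leaving treat aside, 4 settings took the HAP1 call, among them omitting sir2Δ replicate 2 (-0.98) or sir4Δ replicate 1 (-0.95). HEM14 and UPC2 were also lower in sum1Δ than in sir4Δ (-1.18 and -1.19), where depth class as a term took the HEM14 call (-0.91).

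Among 21 iron-sulfur cluster genes none was called against WT, where 5.62%, 1.35% and 10.6% of all genes were in sir2Δ, sir4Δ and sum1Δ. YAH1, the ferredoxin of that pathway, was higher in sir2Δ than in sir4Δ (1.34, SE 0.06, limma adjusted p = 1.01e-06) and in sum1Δ than in sir4Δ (1.5, SE 0.06, limma adjusted p = 3.49e-07). YAH1 stood at 294 and 275 FPKM in sir2Δ libraries, 115 and 108 FPKM in sir4Δ libraries, 311 and 324 FPKM in sum1Δ libraries and 166 and 179 FPKM in WT libraries. No strains overlapped for YAH1, and the strain order was that of FRE1, whose share among all genes was not counted. No zinc gene was called in any comparison, where 1.35% to 17.6% of all genes were, so nothing is read from so few genes. IZH2 passed in sir2Δ against sir4Δ without sir4Δ replicate 2 (-1.1), and ZRG17 in sum1Δ against sir4Δ under quantile normalization (-1.05). The 8 zinc genes had medians of -0.27 in sir2Δ, 0.23 in sir4Δ and 0.01 in sum1Δ against WT, with the zinc regulator ZAP1 at -0.02, 0.33 and 0.38.

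Profiles over the 8 libraries were compared as the root mean square difference of log2(FPKM + 1), each gene centred on its own mean, so that a small value means a like course. All 8 libraries are shared by the genes compared, and the measure covers gaps within strains as well as between them. CTR1 and FRE1 were nearest to each other among the 4 (0.33), and FIT2 and FRE1 were farthest apart (1.1). Among the other 5021 genes tested, FRE1 ranked 153 by nearness to CTR1, and CTR1 ranked 164 by nearness to FRE1. The genes nearest to FRE1 were RRP1 (0.089), RBP95 (0.1) and CGR1 (0.113), all with roles in making ribosomes in S. cerevisiae. Those nearest to CTR1 were PUS4 (0.151), a tRNA-modifying enzyme, RLP7 (0.171) and URB2 (0.174). RRP1 stood at 109 and 113 FPKM in sir2Δ libraries, 27.0 and 29.3 FPKM in sir4Δ libraries, 135 and 137 FPKM in sum1Δ libraries and 72.8 and 52.9 FPKM in WT libraries.

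FET4 lay nearest to MIP6 (0.060), YEL1 (0.095) and SPR28 (0.096), and SPR28, a septin of sporulation, stood at 12.5 and 11.2 FPKM in sir2Δ libraries, 8.60 and 7.67 FPKM in sir4Δ libraries, 17.0 and 16.8 FPKM in sum1Δ libraries and 6.50 and 6.81 FPKM in WT libraries. FIT2 lay nearest to the phosphate transporter gene PHO90 (0.166), to LIA1 (0.181) and to KLLA0D03410g (0.182). Of the metal lists, FET3 lay nearest to FIT2 (0.20, rank 5 among the other genes tested) and COX19 nearest to FRE1 (0.27, rank 81). YAH1 lay nearest to CTR1 (0.35, rank 208). GRX4, HEM15, HMX1 and NAR1 lay nearest to FET4 (0.19 each, ranks 148 to 160). Quantile normalization replaced all of the 3 genes nearest to FET4 and to FIT2 and 2 of those nearest to CTR1, and none of those nearest to FRE1. A pseudocount of 5 replaced 2 of the 3 nearest to FET4 (YEL1 and SPR28) and 1 of those nearest to CTR1. It also replaced 1 of those nearest to FRE1 (CGR1), and none of those nearest to FIT2. SPR28 was thus kept in neither setting.

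**Figure D4:**
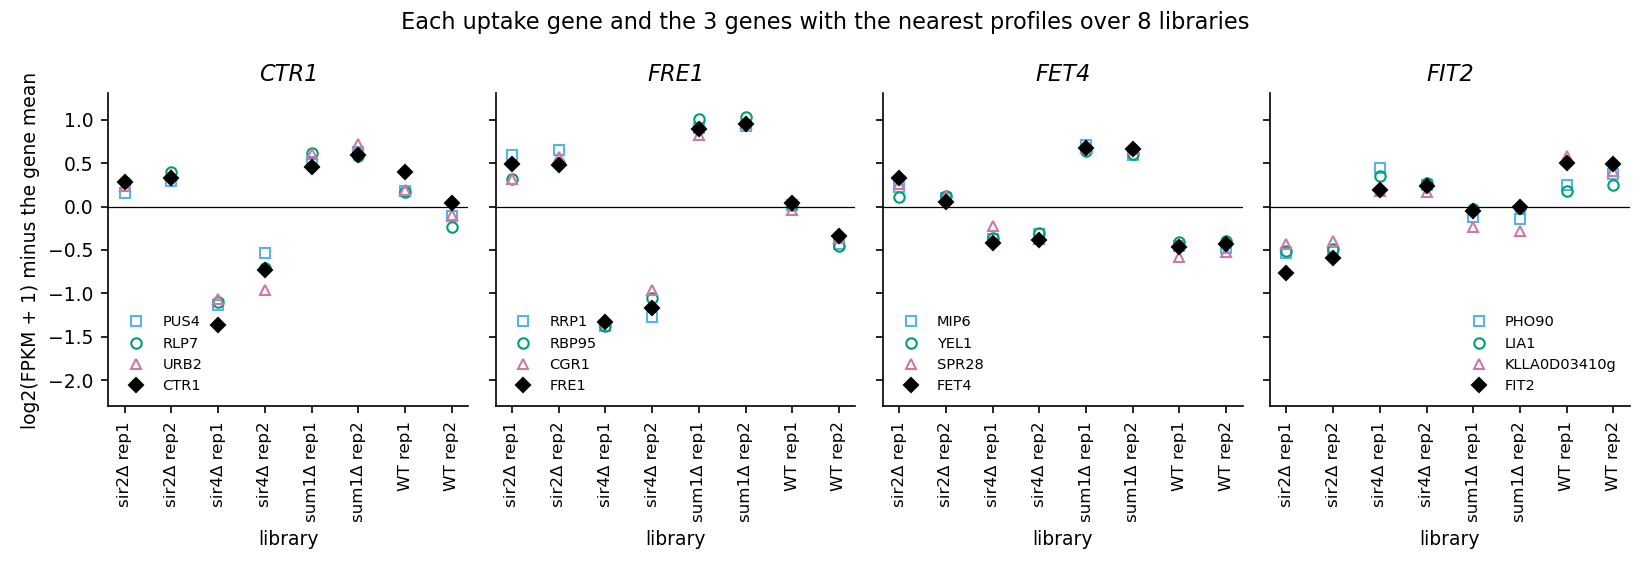
Level of each uptake gene (black diamonds) and of the 3 genes with the nearest profile (open symbols) in the 8 libraries, as log2(FPKM + 1) minus the gene's own mean. FRE1 and CTR1 share a dip in sir4Δ with their neighbours in the plot, FET4 peaks in sum1Δ, and FIT2 dips in sir2Δ.

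The 4 genes lie on chromosomes B (CTR1), F (FRE1), E (FET4) and C (FIT2), far from the ends in gene order. Counted from the nearer end among protein-coding genes, CTR1 was gene 154 of 620, FRE1 215 of 1199, FET4 460 of 1089 and FIT2 216 of 840, and no annotated gene overlapped them. The neighbours on each side were not called against WT. Between mutants only KLLA0F04928g beside FRE1 was called, higher in sir2Δ than in sir4Δ (1.08, beside 1.73 for FRE1). In sum1Δ against sir4Δ KLLA0F04928g stood at 0.92, beside 2.17 for FRE1. SPT6 and DAM1 beside CTR1 stood at -0.02 and 0.10 in sir4Δ, against -1.27 for CTR1. Beside FRE1, CDC123 stood at 0.14, -0.05 and 0.15 in sir2Δ, sir4Δ and sum1Δ, while KLLA0F04928g stood at 0.65, -0.43 and 0.49, with the signs of FRE1. Beside FET4, KLLA0E14477g and KLLA0E14543g stood at -0.12 and 0.14 in sum1Δ, against 1.11 for FET4. Beside FIT2, KLLA0C04994g and KLLA0C05060g stood at -0.23 and 0.46 in sir2Δ, against -1.18 for FIT2.

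Among the 5 protein-coding genes on each side of the 4, 38 of 40 were tested. Against WT, 2 were called in sir2Δ (both higher), 1 in sir4Δ (lower) and 3 in sum1Δ (higher), where 5.62%, 1.35% and 10.6% of all genes were called in either direction. Between mutants 6 were called in sir2Δ against sir4Δ (5 higher), none in sum1Δ against sir2Δ and 7 in sum1Δ against sir4Δ (5 higher), where 12%, 2.41% and 17.6% of all genes were called. Those called against WT were named after their values were seen. CRR1, a gene of spore wall assembly next but one to FRE1, was at 3.96 in sir2Δ and 4.87 in sum1Δ, and ROX1, the fourth gene beyond CTR1, was described above. SPB4, the fifth gene from FET4, was at 1.15 in sum1Δ, and KLLA0B11363g, next but one to CTR1, was at -1.38 in sir4Δ. FRE5 was the fourth gene from FIT2 and stood at 0.03 in sir2Δ.

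**Figure D5:**
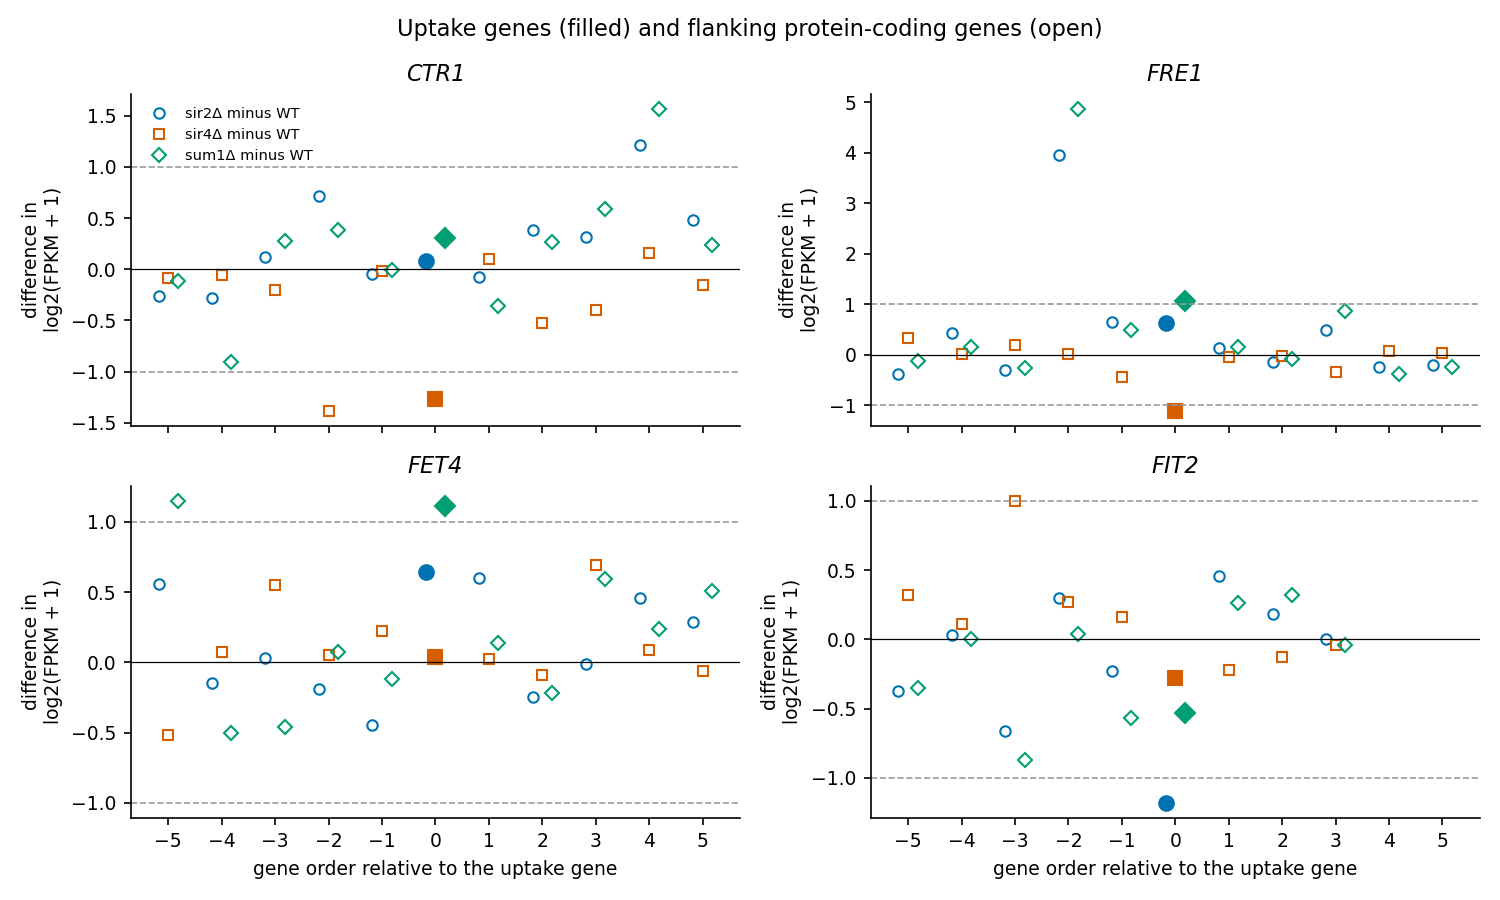
Differences in log2(FPKM + 1) of each mutant minus WT for the 4 uptake genes (filled, at 0) and the protein-coding genes up to 5 places away on each side (open), in gene order. Dashed lines mark the fold threshold; the nearest neighbours lie within it, and CRR1 near FRE1 exceeds it most.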

How the data were processed

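The deposited files hold FPKM values, made by the authors, for 5076 genes in each of 8 libraries. Per the submitters' processing notes the tools included TopHat2 2.0.10 and Cuffnorm 2.2.1. Which build and gene models served is not given in the sources used here. Per the labels' protocols, libraries were non-stranded and read as single 50-base reads, so reads of overlapping or antisense genes cannot be told apart. All identifiers matched RefSeq locus tags (ASM251v1), 3959 with a symbol; no coordinates are printed, since the builds may differ.

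The 5022 genes whose mean reached 1 FPKM were fitted as log2(FPKM + 1) in limma 3.58.1 (R 4.3.3), using an intensity trend and a spread shared by the 4 groups (4 residual and 4.02 prior degrees of freedom), after a test on simulated data. Count models were not used because FPKM are not counts. Depth came from the step size among low FPKM values, assuming fragments of 200 ± 80 bases and at least 50. Low genes came out whole within 0.1 of a read in 95.7% to 100% of cases, over 10 to 199 low genes a library. Depth was chosen to make the lowest genes whole, so that share is no independent check of it. Python 3.11.15, numpy 2.4.6, pandas 2.3.3, scipy 1.17.1 and matplotlib 3.10.9 did the rest.

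The 4 genes, the lists and the tests were chosen with earlier results of these data known. Named besides the 4 are list genes called in any comparison, a fixed set of pathway genes (those without a row, such as FRE2, ZRT1 and CTR3, give no value), the 3 nearest profiles of each gene and the neighbours on each side. Alternatives were other pseudocounts, filters, scalings and fits, and leaving out each library. A planned search for promoter motifs was not run, as no promoter sequence was used here.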

Additional observations from a re-analysis of the deposited data

How the results depend on the processing

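All alternatives were planned; the promoter motif counts were not run. Leaving out 1 library gave log2 fold changes between -0.10 and 0.26 for CTR1 in sir2Δ against WT, -1.58 and -0.95 for CTR1 and -1.29 and -0.90 for FRE1 in sir4Δ against WT, and 0.88 and 1.26 for FRE1 in sum1Δ against WT; other values of the 4 genes kept their direction and call there. It gave 17 to 70 genes higher and 20 to 64 lower in sir4Δ against WT (31 and 37 with all libraries). Omitting WT replicate 1 gave 17 and 20, omitting WT replicate 2 gave 70 and 62, and omitting sir4Δ replicate 2 gave 49 and 64. For metal list genes it gave 1 to 3 higher and 1 to 2 lower in sir2Δ and 0 to 1 higher in sir4Δ.

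Depth class as a term turned FET4 in sir4Δ against WT to -0.04, took the FRE1 call in sum1Δ (0.98), and left 19 genes higher in sir4Δ and 2 metal list genes lower in sum1Δ against sir4Δ. FET4 in sum1Δ was at 0.97 against WT and 0.94 against sir4Δ with a pseudocount of 5, and at 0.93 and 0.85 with quantile normalization. Those settings left 0 metal list genes higher in sir2Δ, and quantile normalization called 90 genes lower there. It put the median log2 fold change of all genes in sum1Δ against sir4Δ at -0.124, beside -0.013 in the fit reported.

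Treat, stricter by construction, left these values as they were without a call: FIT2 in sir2Δ (-1.18), CTR1 (-1.27) and FRE1 (-1.1) in sir4Δ, FRE1 (1.07) and FET4 (1.11) in sum1Δ, CTR1 in sir2Δ against sir4Δ (1.35), and CTR1 (1.58) and FET4 (1.07) in sum1Δ against sir4Δ. Treat called 148 genes higher and 11 lower in sir2Δ, 0 and 0 in sir4Δ, 199 and 65 in sum1Δ, 217 and 57 in sir2Δ against sir4Δ, 10 and 38 in sum1Δ against sir2Δ, and 132 lower in sum1Δ against sir4Δ. Of metal list genes it called 0 higher and 0 lower in sir2Δ, 1 and 0 in sum1Δ, 1 and 1 in sir2Δ against sir4Δ, and 1 lower in sum1Δ against sir4Δ. The causes were not tested.

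Libraries share only a replicate number: deviations of same-numbered libraries correlated with r from -0.251 to 0.025 over genes. A replicate block changed no call of the 4 genes (FRE1 in sum1Δ stayed at 1.07), with 245 genes higher in sir2Δ in place of 246.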

Other observations

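The gap between the 2 libraries of a strain was unusually wide for CTR1 in sir4Δ. Replicate 2 exceeded replicate 1 by 0.63 on the log2(FPKM + 1) scale, and 0.836% of the 5022 genes tested had a wider gap there, beside a median absolute gap of 0.092. In WT replicate 2 was below replicate 1 by -0.35 for CTR1 and by -0.39 for FRE1, and 4.14% and 3.05% of genes had a wider gap, beside a median absolute gap of 0.09. FET4 had its widest gap in sir2Δ (-0.28, wider in 3.74% of genes). FIT2 had gaps of -0.01 in WT and 0.04 in sir4Δ and in sum1Δ, and 0.17 in sir2Δ.

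The genes nearest to CTR1 and FRE1 had WT gaps of the same sign. Replicate 2 minus replicate 1 in WT was -0.29 for PUS4, -0.40 for RLP7, -0.29 for URB2, -0.45 for RRP1, -0.47 for RBP95 and -0.33 for CGR1. In sir4Δ it was 0.60 for PUS4, 0.39 for RLP7 and 0.10 for URB2, beside 0.63 for CTR1. WT replicate 1 is a deep library and WT replicate 2 a shallow one, whereas both sir4Δ libraries are shallow, and the part of depth in these gaps was not tested. These genes were chosen for their nearness over the same 8 libraries, so the like gaps are a description and not independent.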
